A study of Homo sapiens with 9 samples.

Results

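The genes described here encode the machinery that brings newly made proteins into or across the membrane of the endoplasmic reticulum (ER). The list held 34 genes for the signal recognition particle (SRP) and its receptor, the SEC61 channel with its partners SEC62, SEC63, the TRAP complex and the TRAM proteins, the signal peptidase, and the ER membrane complex (EMC). Of these, 33 were measured, out of 18239 genes on the array, and SEC61G was not analysed here. The members were chosen by name, not by their values, and each gene was read from the probe set that carried its symbol alone and had the highest mean over the 9 arrays. Expression was measured on Affymetrix arrays in K562, an established human leukaemia line derived from chronic myeloid leukaemia in blast crisis. The cells had been transduced with retroviral supernatant carrying calreticulin (CALR), a lectin chaperone of the ER lumen, in 1 of 3 forms, with 3 arrays each. They were Del52, a deletion form of CALR found in myeloproliferative neoplasms; Ins5, the insertion form found in the same diseases; and WT, the unmutated CALR. All 3 groups had gone through 4 rounds of infection, 1 every 12 h, a further 36 h of culture, and magnetic selection for the surface marker NGFR, with a purity above 90% at 48 h. The sources used here describe each group as a selected pool and name neither a removal of the cells' own CALR nor an untransduced control. They also do not say whether the 3 arrays of a group came from separate cultures, so the p-values measure only the spread between these samples. In a bulk sample, fewer cells with a transcript and less of it per cell cannot be told apart.

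As background, a protein destined for secretion or for a membrane carries a hydrophobic signal that SRP binds as it leaves the ribosome, and SRP then docks the ribosome on its receptor at the ER. The chain is handed to the SEC61 channel, where TRAP and TRAM assist the entry of some chains and SEC62 and SEC63 assist chains that arrive after translation or with weak signals. The signal peptidase then removes the signal. The EMC inserts membrane segments that SEC61 handles poorly, among them some tail anchors and the first segments of some multipass proteins. Calreticulin is itself made along this route. Many genes of the route are known targets of the unfolded protein response, in which the factors XBP1 and ATF6 bind promoter elements such as the core TGACGTG.

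Promoter windows are shown for EMC1 and SSR1 and for the members that hold that core. The windows come from RefSeq on GRCh38.p14 and run from 250 bases before to 50 bases after an annotated start. Sequences were at hand for 36 promoters of 29 measured members. SRPRA, TRAM1, SPCS1 and EMC2 had no promoter sequence at hand and were not searched. The core TGACGTG, searched on both strands with any overlap allowed, was found in 5 of these 36 promoters, and in 692 of all 35116 promoters, which is 1.97%. The 5 belong to SEC61A1, SRP19, SEC62, SSR3 and SSR4. The ER stress response element, CCAAT followed by any 9 bases and CCACG, was found in 0 of the 36 and in 27 of all promoters, 0.0769%. EMC1 and SSR1, the members with the lowest p-values, held neither, and their full windows are printed in lower case. For the other 5 genes the core and 30 bases on either side are printed 5′ to 3′ on the gene's strand. The core is in capitals, as TGACGTG or as its reverse complement CACGTCA. A match is a description of the letters and not a measured binding site.
EMC1 (chr1:19251475-19251774, minus strand): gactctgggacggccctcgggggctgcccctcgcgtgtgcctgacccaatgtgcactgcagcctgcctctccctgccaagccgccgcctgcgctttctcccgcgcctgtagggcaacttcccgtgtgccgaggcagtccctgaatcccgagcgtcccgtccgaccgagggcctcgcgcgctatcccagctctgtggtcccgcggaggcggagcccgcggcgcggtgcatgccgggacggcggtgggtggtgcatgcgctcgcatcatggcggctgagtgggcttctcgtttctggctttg
SSR1 (chr6:7313150-7313449, minus strand): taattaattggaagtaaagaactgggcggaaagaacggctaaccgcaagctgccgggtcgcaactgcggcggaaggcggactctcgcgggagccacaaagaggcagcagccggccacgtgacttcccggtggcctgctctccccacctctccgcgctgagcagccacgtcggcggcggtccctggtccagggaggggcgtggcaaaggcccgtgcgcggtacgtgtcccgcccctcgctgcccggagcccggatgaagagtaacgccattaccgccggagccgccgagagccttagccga
SEC61A1 (chr3:128052406-128052472, plus strand): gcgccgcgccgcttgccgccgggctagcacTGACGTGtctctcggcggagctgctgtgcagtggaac
SRP19 (chr5:112861146-112861212, plus strand): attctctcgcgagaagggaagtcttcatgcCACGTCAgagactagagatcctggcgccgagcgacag
SEC62 (chr3:169966761-169966827, plus strand): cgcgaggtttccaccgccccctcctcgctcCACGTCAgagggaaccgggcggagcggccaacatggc
SSR3 (chr3:156554129-156554195, minus strand): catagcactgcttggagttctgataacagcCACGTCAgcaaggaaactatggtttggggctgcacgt
SSR4 (chrX:153794510-153794576, plus strand): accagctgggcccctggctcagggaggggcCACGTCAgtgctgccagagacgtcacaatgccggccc

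The arrays had medians between 3.73 and 3.76 on the log2 scale of the deposited values. In all 49293 probe sets other than controls, the 3 arrays that carried the same replicate number, 1 from each construct, had the same mean for numbers 1, 2 and 3 to within 0.0001. Any difference between replicate numbers had therefore been taken out before deposit, and a value that is high in 1 array is met by lower values in the other arrays of that number. The group means are not altered by this, but the fit of 3 group means counts 6 residual degrees of freedom where the values hold 4. Each adjusted p below comes from that fit, as does each SE in the text. Each interval, called blocked, comes from the fit with the replicate number as a block, which counts 4. The SEs of the blocked fit are larger, for EMC1 in Del52 against WT 0.06 where the text gives 0.04. With the block the adjusted p was 1.0 for every member in every comparison. Leaving out 1 array, as done below, keeps the other arrays of its number. Their values still carry the opposite offset, so such an omission does not fully remove that array's influence. The arrays WT replicate 2 and WT replicate 3 lay at opposite ends of the first principal component, with scores of 0.57 and -0.57, and that component held 70.48% of the variance. CALR itself, read from its brightest probe set, averaged 7.42 ± 0.18 on the Del52 arrays, 7.40 ± 0.12 on the Ins5 arrays and 7.57 ± 0.24 on the WT arrays (SD, n = 3 each), differences within that spread. No probe sequences were at hand, so the values of that probe set cannot be assigned to the transduced form or to the cells' own. Of 12 K562 markers 10 were measured and 7 lay above every antigenomic control, the probe sets that match no human gene, with HBG1 highest at 11.9 and KIT lowest at 2.50. Of the markers of other cells, 0 of 6 for fibroblasts, 0 of 4 for lymphoid cells, 1 of 4 for epithelial cells (EPCAM) and 1 of 5 for myeloid cells (LYZ) lay above every antigenomic control. Of the 33 members, 30 lay above every antigenomic control. The other members, SEC61A2 with a mean of 4.92, SPCS2 with 3.50 and EMC9 with 5.62, lay within the controls' span of 1.56 to 6.35.

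No member passed the test in Del52 or in Ins5 against WT. The nearest were EMC1 and EMC8, which lay higher in Del52, EMC4, which lay higher in Ins5, and SSR1 and TRAM1, which lay lower in both mutants. In Del52 against WT, limma called 0 of 33 members and 0 of 18239 genes (0.0%) at an adjusted p under 0.05, and 0 with the replicate block. At an unadjusted p under 0.05 there were 4 members, against a background of 7.05% of all genes. Of these, 2 lay higher (EMC1 and EMC8), against 4.1%, and 2 lower (SSR1 and TRAM1), against 2.95%. With the block EMC1 and SSR1 were left, 2 members against 2.12%. Members stood at 13 higher and 20 lower, with a median log2 difference of -0.04, beside 0.01 for all genes, of which 54.6% were higher. In Ins5 against WT, limma called 0 members and 0 genes (0.0%), again 0 with the block. There were 3 members at an unadjusted p under 0.05, against 7.41% of all genes, with 1 higher (EMC4), against 5.15%, and 2 lower (SSR1 and TRAM1), against 2.25%. With the block SSR1 was left, 1 member against 2.12%. Members stood at 14 higher and 19 lower, with a median of -0.02, beside 0.02 for all genes, of which 59.6% were higher. The 2 comparisons share the WT arrays. As shares of the 33 members, 12.1% in Del52 and 9.09% in Ins5 were at an unadjusted p under 0.05, 6.06% and 3.03% with the block, and 39.4% and 42.4% were higher. No test was run on these shares. The smallest adjusted p among the members was 0.603 in Del52 and 0.466 in Ins5.

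**Figure D1:**
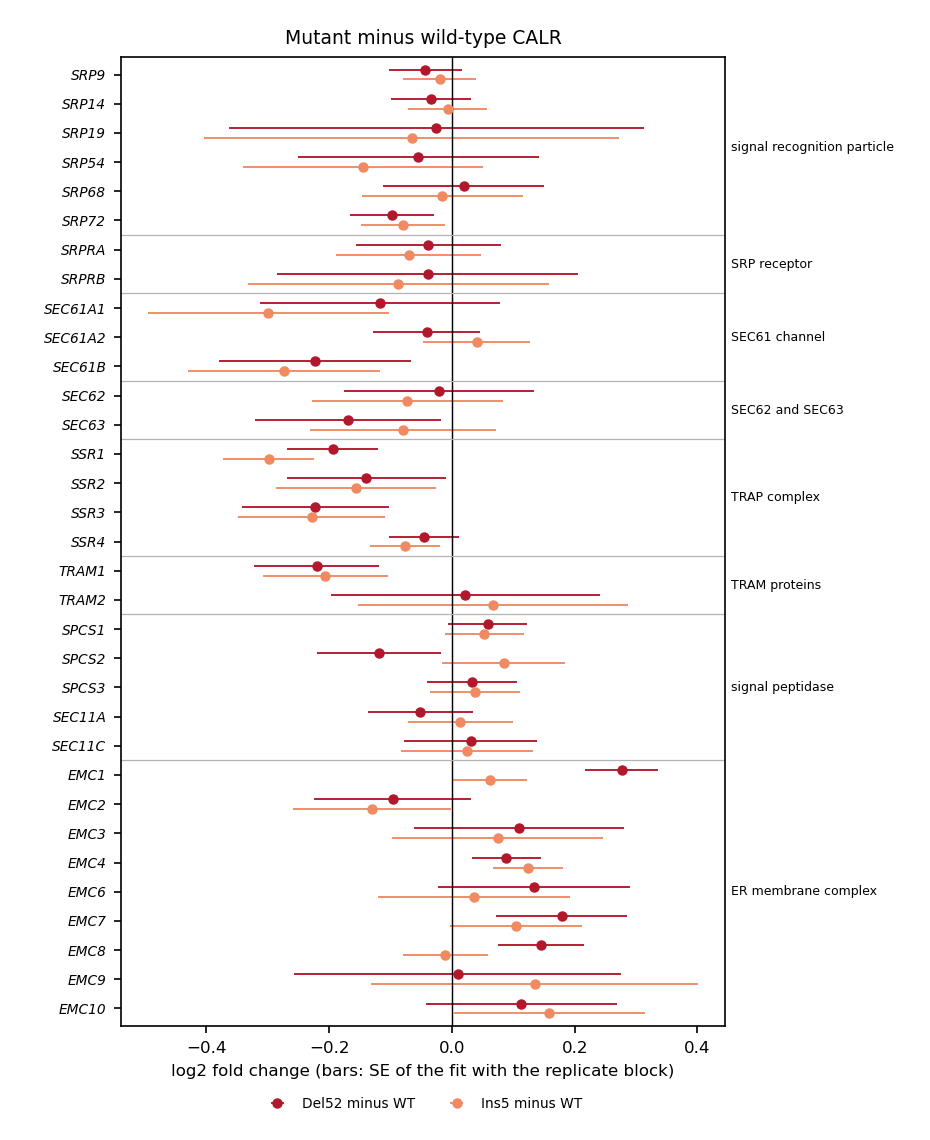
Log2 fold change of each member in Del52 minus WT and Ins5 minus WT, with bars for the standard error of the fit with the replicate block. The TRAP genes lie left of 0 for both mutants, the EMC genes lie mostly right of 0, and EMC1 in Del52, at 0.28, is the point farthest right.

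By complex, the members of TRAP stood at 0 higher and 4 lower in Del52 and at 0 higher and 4 lower in Ins5, with median log2 differences of -0.17 and -0.19. The EMC stood the other way, at 8 higher and 1 lower in Del52 and 7 higher and 2 lower in Ins5, with medians of 0.11 and 0.07. The SRP proteins stood at 1 higher and 5 lower in Del52 and 0 higher and 6 lower in Ins5, with medians of -0.04 in each. Without WT replicate 3 they stood at 3 higher and 3 lower in both, with medians of 0.04 and 0.00. In Del52 they also stood so without Del52 replicate 3, and with the mean of all probe sets. The SEC61 channel stood at 0 higher and 3 lower in Del52 and 1 higher and 2 lower in Ins5. The signal peptidase stood at 3 higher and 2 lower in Del52 and 5 higher and 0 lower in Ins5, with medians of 0.03 and 0.04. These are counts of direction, not of genes that passed a test.

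The TRAP complex is a 4-subunit partner of the SEC61 channel that helps chains with less strongly binding signals to enter. SSR1, its alpha subunit, had levels of 9.67, 9.50 and 9.55 in Del52 and 9.41, 9.54 and 9.46 in Ins5, against 9.73, 9.76 and 9.80 in WT. All 6 mutant arrays lay below all 3 WT arrays. The log2 difference in Ins5 was -0.30 ± 0.06 (SE; limma adjusted p = 0.466), with a blocked 95% interval of -0.48 to -0.12. The difference in Del52 was -0.19 ± 0.06 (adjusted p = 0.603), with an interval of -0.37 to -0.01. Its WT arrays lay close together, with an SD of 0.04, and leaving out any 1 array kept the differences between -0.24 and -0.16 in Del52 and between -0.33 and -0.27 in Ins5.

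SSR3, the gamma subunit, had levels of 8.52, 8.54 and 8.42 in Del52 and 8.57, 8.54 and 8.35 in Ins5, against 8.61, 8.62 and 8.93 in WT. The mutant arrays lay below the WT arrays, and WT replicate 3 stood well above the other two. The log2 differences were -0.22 ± 0.10 in Del52 (adjusted p = 0.723) and -0.23 ± 0.10 in Ins5 (adjusted p = 0.677), with blocked intervals of -0.52 to 0.07 and -0.52 to 0.06. Without WT replicate 3 they were -0.12 in both. SSR2, the beta subunit, had levels of 8.49, 8.48 and 8.32 in Del52 and 8.44, 8.51 and 8.29 in Ins5, against 8.48, 8.42 and 8.80 in WT. On this brightest SSR2 probe set the groups overlapped, since only WT replicate 3 stood above the mutants. The less bright SSR2 probe set gave -0.12 in Del52 and -0.18 in Ins5, with all Ins5 arrays below the WT arrays. SSR4, the delta subunit, had levels of 9.43, 9.36 and 9.38 in Del52 and 9.35, 9.38 and 9.34 in Ins5, against 9.40, 9.44 and 9.46 in WT. It spanned only 0.12 over all arrays, with log2 differences of -0.05 ± 0.04 in Del52 and -0.08 ± 0.04 in Ins5 (adjusted p = 0.907 and 0.725). The 3 Ins5 arrays lay below the 3 WT arrays, while Del52 overlapped WT. Without WT replicate 3 the TRAP median was -0.07 in Del52 and -0.09 in Ins5, against -0.17 and -0.19 with all arrays, with 0 of 4 genes higher in either case.

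TRAM1, a membrane protein beside the channel that contacts entering chains, had levels of 8.60, 8.66 and 8.48 in Del52 and 8.53, 8.67 and 8.59 in Ins5, against 8.85, 8.64 and 8.91 in WT. On its brightest probe set, WT replicates 1 and 3 lay above all mutant arrays and WT replicate 2 lay among them. The log2 difference was -0.22 ± 0.08 in Del52 (adjusted p = 0.655), with a blocked interval of -0.47 to 0.03. In Ins5 it was -0.21 ± 0.08 (adjusted p = 0.651), with an interval of -0.46 to 0.04. On the less bright TRAM1 probe sets, also above every antigenomic control, all mutant arrays lay below all WT arrays. These gave -0.27 and -0.19 in Del52 and -0.25 and -0.24 in Ins5. TRAM2, the paralogue of TRAM1, differed little in mean, by 0.02 in Del52 and 0.07 in Ins5. Its arrays were wide apart within WT, at 6.58, 7.02 and 6.30, and the mutant arrays, at 6.72, 6.50 and 6.75 in Del52 and 6.69, 6.47 and 6.93 in Ins5, lay inside that span.

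**Figure D2:**
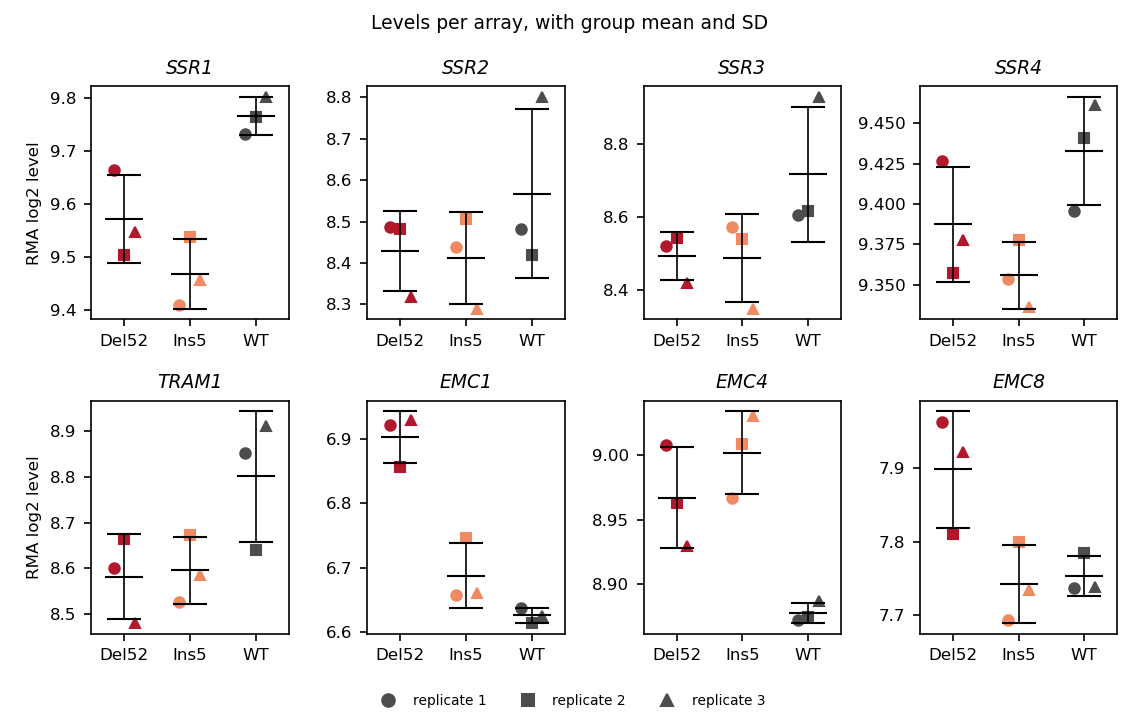
RMA log2 level per array for 8 members in Del52, Ins5 and WT, with lines for the group mean and SD (n = 3) and marker shapes for the replicate number; each panel has its own vertical scale. SSR1 is below WT in all 6 mutant arrays, EMC1 is above Ins5 and WT in all 3 Del52 arrays, and WT replicate 3 is the highest array for SSR2 and SSR3.

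The ER membrane complex is a multi-subunit insertase, in which EMC3 and EMC6 form the insertase core in the membrane and EMC1, EMC4, EMC7 and EMC10 contribute to the lumenal side, while EMC2, EMC8 and EMC9 sit on the cytosolic side. EMC1, the largest subunit, had levels of 6.92, 6.86 and 6.93 in Del52 and 6.66, 6.75 and 6.66 in Ins5, against 6.64, 6.61 and 6.63 in WT. The 3 Del52 arrays lay above all others. The log2 difference between Del52 and WT was 0.28 ± 0.04 (SE; limma adjusted p = 0.603), with a blocked 95% interval of 0.13 to 0.42. Its unadjusted p ranked 2 from the smallest among the 18239 genes, and the difference stayed between 0.26 and 0.30 when any 1 array was left out. In Ins5 the difference from WT was 0.06 ± 0.04 (adjusted p = 0.834), with an interval of -0.08 to 0.21, although the groups did not overlap.

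EMC8, which shares its place in the complex with its paralogue EMC9, had levels of 7.96, 7.81 and 7.92 in Del52, 7.69, 7.80 and 7.73 in Ins5 and 7.74, 7.78 and 7.74 in WT. The Del52 arrays lay above all others, by a log2 difference from WT of 0.15 ± 0.05 (adjusted p = 0.654) with a blocked interval of -0.03 to 0.32. The Ins5 difference was -0.01 ± 0.05. EMC9 itself was dim and gave 0.01 in Del52 and 0.13 in Ins5. EMC4, a small membrane subunit, had levels of 9.01, 8.96 and 8.93 in Del52 and 8.97, 9.01 and 9.03 in Ins5, against 8.87, 8.87 and 8.89 in WT. All 6 mutant arrays lay above all 3 WT arrays. The log2 differences were small, at 0.09 ± 0.04 in Del52 (adjusted p = 0.711) and 0.12 ± 0.04 in Ins5 (adjusted p = 0.588), with blocked intervals of -0.05 to 0.23 and -0.02 to 0.26.

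The insertase core genes were less even between arrays. EMC3 had levels of 8.35, 8.38 and 8.17 in Del52 and 8.26, 8.44 and 8.10 in Ins5, against 8.15, 7.94 and 8.49 in WT. EMC6 had levels of 7.69, 7.26 and 7.36 in Del52 and 7.26, 7.30 and 7.46 in Ins5, against 7.14, 7.52 and 7.26 in WT. The WT arrays of each spanned most or all of the mutant arrays, and the mean differences, 0.11 and 0.07 for EMC3 and 0.13 and 0.04 for EMC6 in Del52 and Ins5, lay within that spread. EMC7 and EMC10, on the lumenal side, differed by 0.18 ± 0.09 and 0.11 ± 0.13 in Del52 and by 0.10 ± 0.09 and 0.16 ± 0.13 in Ins5. EMC2, the cytosolic scaffold, was the only subunit lower in both mutants, by -0.10 in Del52 and -0.13 in Ins5, with an SE of 0.11. The direction count in Del52 went to 6 higher and 3 lower without WT replicate 2. It went to 7 higher and 2 lower without WT replicate 3 or Del52 replicate 2, and with each array centred on its median. The median in Del52 was 0.18 without Del52 replicate 2. In Ins5 the count went to 6 higher and 3 lower without WT replicate 1 or 2 or Ins5 replicate 2 or 3. It went to 8 higher and 1 lower without Ins5 replicate 1, and with quantile normalization.

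The genes of the signal recognition particle, read from their brightest probe sets, had differences from WT of 0.14 or less in size. SRP72, which with SRP68 forms the core heterodimer of the particle, had levels of 8.35, 8.32 and 8.32 in Del52 and 8.27, 8.38 and 8.41 in Ins5, against 8.50, 8.41 and 8.38 in WT. The Del52 arrays lay below the WT arrays, by a log2 difference of -0.10 ± 0.05 (adjusted p = 0.764), and Ins5 overlapped WT. A less bright SRP72 probe set, also above every antigenomic control, gave -0.34 ± 0.10 in Ins5 (SE), with all Ins5 arrays below the WT arrays, and -0.09 ± 0.10 in Del52. SRP9 and SRP14, which together make the domain that slows translation, were the steadiest on these probe sets, spanning 0.12 and 0.13 over the 9 arrays. They differed by -0.04 and -0.03 in Del52 and by -0.02 and -0.01 in Ins5. For SRP14, 2 less bright probe sets, also above every antigenomic control, gave 0.06 and 0.08 in Del52 and 0.03 and 0.04 in Ins5. SRP68 differed by 0.02 in Del52 and -0.02 in Ins5. SRP54, the subunit that binds the signal, differed by -0.05 in Del52 and -0.14 in Ins5, with an SE of 0.17. SRP19, which lets SRP54 bind the particle's RNA, had levels of 8.88, 9.09 and 8.61 in Del52 and 8.81, 9.16 and 8.49 in Ins5, against 8.87, 8.32 and 9.46 in WT. Its WT arrays alone spanned all other arrays, the group means were 8.86, 8.82 and 8.89, and only 0.656% of its variance lay between groups. The receptor subunits SRPRA and SRPRB, the GTPases that take up SRP at the membrane, differed by -0.04 each in Del52 and by -0.07 and -0.09 in Ins5.

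SEC61A1, which forms the channel, had levels of 6.995, 7.022 and 6.756 in Del52 and 6.732, 6.933 and 6.564 in Ins5, against 6.982, 6.754 and 7.389 in WT. WT replicate 3 was the highest array and WT replicate 2 was among the low ones. The log2 differences were -0.12 ± 0.17 in Del52 (adjusted p = 0.974) and -0.30 ± 0.17 in Ins5 (adjusted p = 0.766), and the blocked interval in Ins5 was -0.78 to 0.18. SEC61B, the small beta subunit, had levels of 10.26, 10.17 and 9.98 in Del52 and 10.09, 10.22 and 9.96 in Ins5, against 10.24, 10.20 and 10.65 in WT. The groups overlapped, with differences of -0.22 ± 0.13 in Del52 (adjusted p = 0.816) and -0.27 ± 0.13 in Ins5 (adjusted p = 0.709). For the 3 SEC61 genes the median was -0.12 in Del52 and -0.27 in Ins5, and without WT replicate 3 it was 0.02 and -0.12. Without that array SEC61A1 differed by 0.06 in Del52 and -0.12 in Ins5, and SEC61B by -0.08 and -0.13. The Del52 and Ins5 arrays of number 3, the lowest of their groups for both genes, stayed in these fits. Without Del52 replicate 3 the median in Del52 was -0.03, and without WT replicate 2 it was -0.26. SEC61A2, the alternative alpha subunit, was too dim to be set apart from the controls and differed by -0.04 and 0.04.

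SEC62 and SEC63 serve chains that need help to open the channel. SEC63, which recruits the lumenal chaperone BiP, had levels of 8.02, 8.36 and 8.24 in Del52 and 8.29, 8.39 and 8.21 in Ins5, against 8.57, 8.13 and 8.43 in WT. Its groups overlapped, with differences of -0.17 ± 0.13 in Del52 (adjusted p = 0.880) and -0.08 ± 0.13 in Ins5 (adjusted p = 1.000). SEC62 differed by -0.02 in Del52 and -0.07 in Ins5, and its WT arrays, at 7.80, 7.81 and 7.38, spanned all the mutant arrays.

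The signal peptidase genes were close to WT. SEC11A and SEC11C, the catalytic subunits, differed by -0.05 and 0.03 in Del52 and by 0.01 and 0.02 in Ins5. The accessory subunits SPCS1 and SPCS3 differed by 0.06 and 0.03 in Del52 and by 0.05 and 0.04 in Ins5. SPCS2 was read from a probe set at 3.50, within the span of the controls, because its 3 other probe sets also carry other symbols and were not used. It differed by -0.12 in Del52 and 0.08 in Ins5, and its levels do not show whether the transcript was measured.

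Del52 was set against Ins5 to ask whether the mutant forms differ from each other. Limma called 0 of 33 members and 0 of 18239 genes (0.0%), and 0 with the replicate block. At an unadjusted p under 0.05 there were 3 members, against 5.77% of all genes, with 2 higher in Del52 (EMC1 and EMC8), against 2.22%, and 1 lower (SPCS2), against 3.55%. With the block EMC1 was left, 1 member against 1.33%. Members stood at 20 higher and 13 lower in Del52, with a median log2 difference of 0.02, beside -0.01 for all genes, of which 45.4% were higher. EMC1 averaged 6.90 ± 0.04 on the Del52 arrays and 6.69 ± 0.05 on the Ins5 arrays (SD, n = 3 each) and differed by 0.21 ± 0.04 (SE; limma adjusted p = 0.841), with a blocked interval of 0.07 to 0.36. EMC8, with means of 7.90 and 7.74, differed by 0.16 ± 0.05 (adjusted p = 0.841), with an interval of -0.01 to 0.33. SPCS2, whose probe set is dim, lay lower in Del52, by -0.20 ± 0.08 (adjusted p = 0.855), with an interval of -0.45 to 0.04. SSR1 differed by 0.10 ± 0.06 (adjusted p = 0.947), and its blocked interval of -0.08 to 0.28 leaves the order of the mutants unsettled. TRAM1 and SSR3 differed by -0.01 and 0.01, with blocked intervals of -0.26 to 0.24 and -0.29 to 0.30.

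Groups that did not overlap were counted in each direction. In Del52 against WT, where 10.6% of all genes did not overlap in either direction, the arrays of 3 members (EMC1, EMC4 and EMC8) lay wholly above, against 6.23% of all genes, and those of 3 members (SRP72, SSR1 and SSR3) wholly below, against 4.36%. In Ins5 against WT, with 11.5% of all genes in either direction, 2 members (EMC1 and EMC4) lay wholly above, against 8.16%, and 3 (SSR1, SSR3 and SSR4) wholly below, against 3.3%. In Del52 against Ins5, with 10.1% of all genes in either direction, 2 members (EMC1 and EMC8) lay wholly above, against 3.81%, and 1 (SPCS2) wholly below, against 6.28%. Over both directions this came to 6 members (18.2%) in Del52 against WT, 5 (15.2%) in Ins5 against WT and 3 (9.09%) in Del52 against Ins5. The moderated F test over the 3 groups had 4 members at an unadjusted p under 0.05, against 7.23% of all genes, and 2 with the block, against 1.34%.

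Other probe sets of the same gene, 89 in all for the 33 members, gave a check on the leading differences. SSR1 had 8 probe sets. Of these, 7 were lower in both mutants, including all 6 that lay above every antigenomic control, by -0.31 to -0.11 in Del52 and -0.31 to -0.22 in Ins5 for those 6. The remaining dim one, at 4.30, stood at 0.16 and 0.02. The 3 probe sets of SRP72 were lower in both mutants, by -0.12 to -0.09 in Del52 and -0.34 to -0.06 in Ins5. The probe sets of SSR3 (4), TRAM1 (3), SSR2 (2), SEC61A1 (3), SEC63 (3) and SEC62 (9) were all lower in both mutants. Those of SSR3 ranged from -0.42 to -0.22 in Del52 and from -0.36 to -0.23 in Ins5. Those of SEC63 ranged from -0.44 to -0.17 in Del52 and from -0.35 to -0.08 in Ins5. For SEC61A1 in Ins5 they ranged from -0.45 to -0.30. In the less bright probe sets of SEC61A1 all Ins5 arrays lay below the WT arrays. The 3 probe sets of SRP14, all above every antigenomic control, did not match, with 2 higher and 1 lower in each mutant. The 2 of SRP68 stood at 0.02 and -0.01 in Del52 and were both lower in Ins5. SSR4 had 1 probe set and no such check.

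EMC1 had 4 probe sets that did not match each other. Its brightest, at 6.74, gave 0.28 in Del52 and 0.06 in Ins5. The next, at 5.91, gave 0.15 and 0.13, while those at 4.49 and 4.29 gave -0.07 and -0.16 in Del52 and -0.08 and -0.35 in Ins5. Between Del52 and Ins5 the 4 gave 0.21, 0.02, 0.02 and 0.20 in the same order. Only the brightest lay above every antigenomic control. With the mean of all its probe sets, EMC1 differed by 0.05 in Del52 and -0.06 in Ins5, so its difference rests on that probe set. For EMC4, the 3 bright probe sets of 4 were higher in both mutants, by 0.09 to 0.15 in Del52 and 0.08 to 0.12 in Ins5. For EMC8 both probe sets were higher in Del52, by 0.15 and 0.08, but only the brighter lay above every antigenomic control. The dim one, at 5.98, gave 0.07 in Ins5 and 0.01 between Del52 and Ins5, so the EMC8 difference between the mutants rests on the brighter. For SEC11A all 4 were lower in Del52, by at most 0.05, and all 4 higher in Ins5, by at most 0.09.

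**Figure D3:**
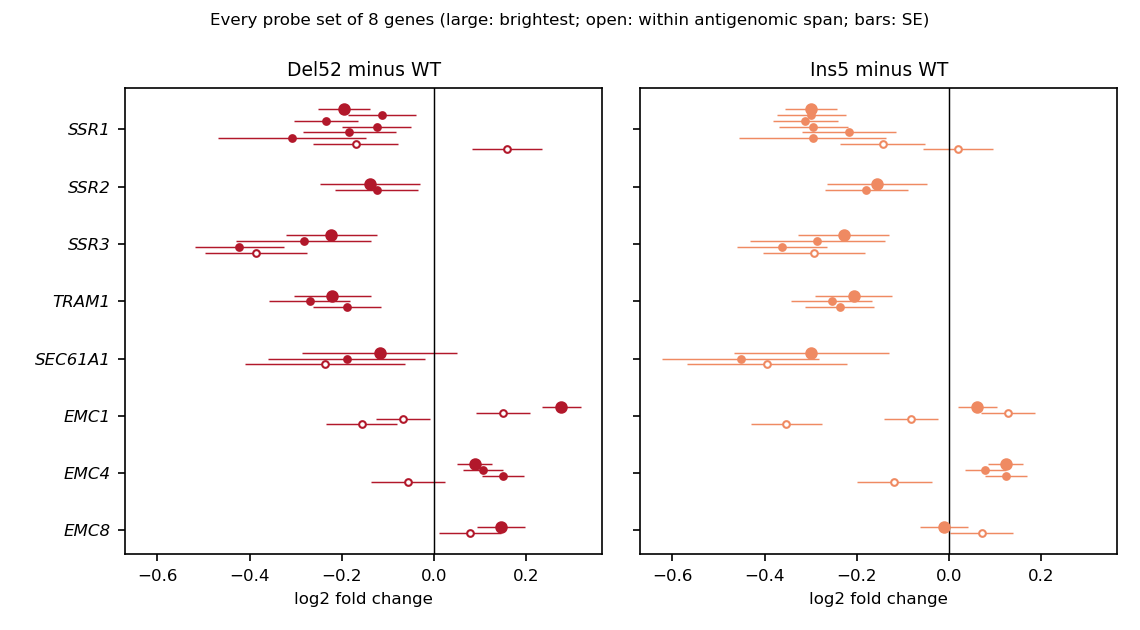
Log2 fold change of every probe set of 8 members in Del52 minus WT (left) and Ins5 minus WT (right), with bars for the standard error of the fit without the block; the large point is the brightest probe set and open points are no brighter than the brightest antigenomic control. The probe sets of SSR1, SSR2, SSR3, TRAM1 and SEC61A1 lie left of 0, with 1 dim exception for SSR1, whereas those of EMC1 lie on both sides.

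Across arrays, WT replicates 2 and 3 lay further apart than the group means in most members. These are single arrays at the ends of the first principal component, set against means of 3 arrays. A larger distance between them does not show that the spread within WT exceeds that between constructs. In 24 of 33 members, 72.7%, the distance between WT replicates 2 and 3 exceeded every difference between group means, as it did in 65.3% of all genes. WT replicate 3 was higher than WT replicate 2 in 23 members and lower in 10. Among the members where WT replicate 3 was higher, the distance was largest for SRP19, at 1.15, followed by EMC9 at 0.87, SRPRB at 0.82, SRP54 at 0.65 and SEC61A1 at 0.64. Of those where it was lower, TRAM2, EMC10 and SEC62 had the largest distances, at -0.72, -0.51 and -0.43. The members therefore did not share 1 array profile. For the typical member 18.4% of the variance lay between groups, beside 21.3% for all genes, and the median range over the 9 arrays was 0.43, beside 0.32 for all genes. EMC1, with 93.7% between groups, SSR1 with 84.6%, EMC4 with 82.4% and EMC8 with 69.9% were the members whose variance lay most between groups. Averaged over its genes, TRAP lay 0.02, -0.04 and -0.09 from its mean in the Del52 arrays and -0.06, -0.02 and -0.15 in the Ins5 arrays, against 0.05, 0.05 and 0.24 in the WT arrays. The EMC lay 0.10, 0.04 and 0.01 from its mean in Del52 and -0.03, 0.05 and 0.00 in Ins5, against -0.07, -0.09 and -0.01 in WT.

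**Figure D4:**
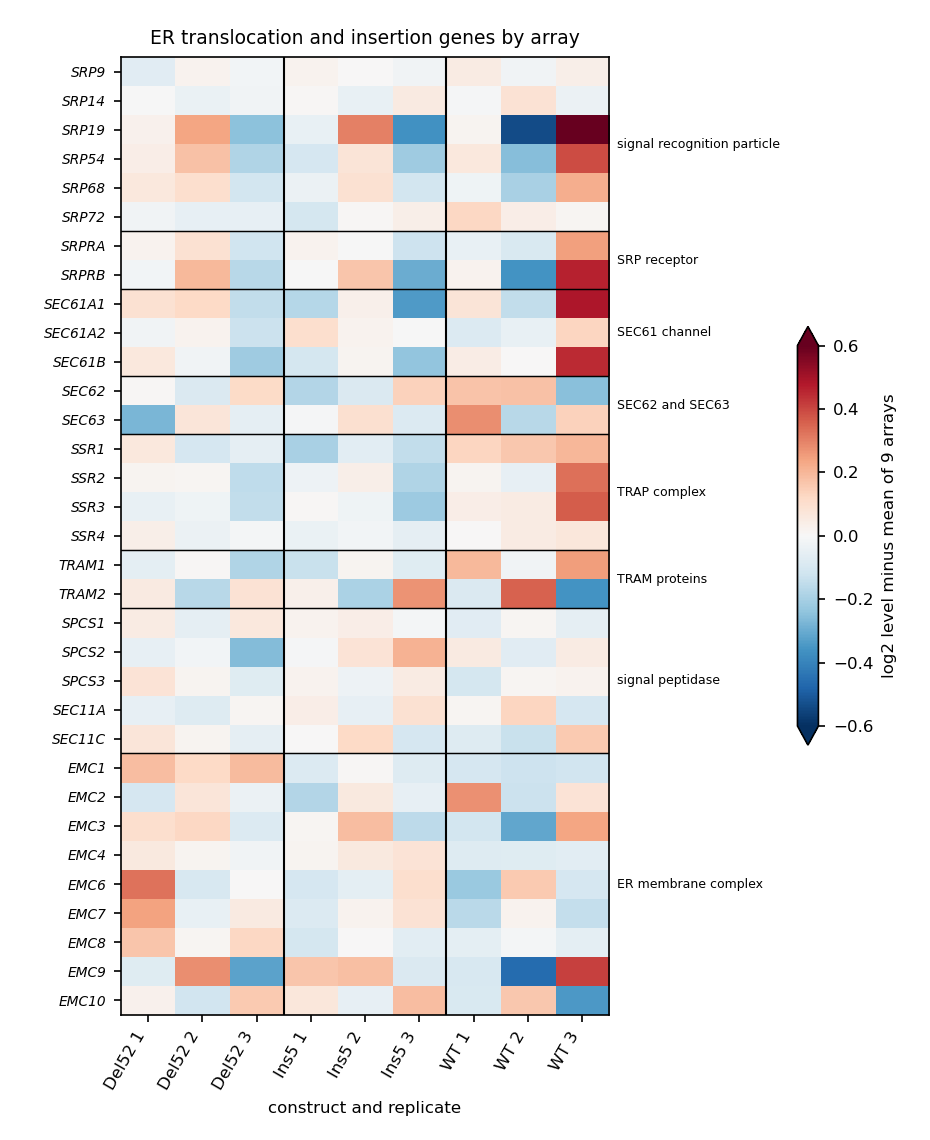
Log2 level of each member in each array minus its mean over the 9 arrays, with arrays in columns by construct and replicate and genes in rows by complex. WT replicates 2 and 3 carry opposite colours for SRP19, SRP54, SRPRB and EMC9, while SSR1 is red in all 3 WT arrays and EMC1 is red in all 3 Del52 arrays.

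Further genes of the route were read from a list of 30, chosen with earlier results of these data known, of which 27 were measured. It covers the tail-anchor pathway, the multipass translocon, nascent chain factors and proteins bound to SEC61 or the ribosome at the ER. In Del52 against WT they stood at 15 higher and 12 lower, which is 55.6% higher beside 54.6% of all genes, with a median log2 difference of 0.05. In Ins5 they also stood at 15 higher and 12 lower, beside 59.6% of all genes higher, with a median of 0.05. Limma called 0 of 27 in each comparison, and with an unadjusted p under 0.05 there was 1 gene in Del52 (HSPA13), 2 in Ins5 (HSPA13 and SERP1) and 1 between Del52 and Ins5 (GET4), with 0 in each under the block. These are 3.7%, 7.41% and 3.7% of the list, beside 7.05%, 7.41% and 5.77% of all genes. HSPA13, an atypical HSP70 of the microsomal membrane, had levels of 7.22, 7.68 and 7.40 in Del52 and 7.50, 7.61 and 7.31 in Ins5, against 8.12, 7.54 and 8.12 in WT. WT replicates 1 and 3 lay above all mutant arrays, as for the brightest TRAM1 probe set, and WT replicate 2 lay among them. The differences were -0.49 in Del52 (adjusted p = 0.655) and -0.45 in Ins5 (adjusted p = 0.651).

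SERP1, a small stress-induced protein bound to SEC61, had levels of 10.38, 10.33 and 10.37 in Del52 and 10.34, 10.30 and 10.30 in Ins5, against 10.38, 10.47 and 10.43 in WT. The Ins5 arrays lay below WT, by -0.11 (adjusted p = 0.631), and Del52 differed by -0.06. GET4, a cytosolic factor that hands tail-anchored proteins to their ATPase, was dim and differed by -0.16 between Del52 and Ins5 (adjusted p = 0.860). It differed by 0.12 between Ins5 and WT. Next by p, with unadjusted p-values above 0.10, were GET3, the tail-anchor ATPase, at 0.10 and SERP2, a SERP1 paralogue, at 0.12 in Del52 against WT, and TRAM1L1, a TRAM1 paralogue, at 0.11 in Ins5 against WT. Between Del52 and Ins5 they were CCDC47, of the multipass translocon, at 0.10, RRBP1, a ribosome receptor, at -0.12 and ZFAND2B, a proteasome-linked factor for chains that fail to enter, at -0.10. Of these, SERP2, TRAM1L1, RRBP1 and ZFAND2B, like GET4, were no brighter than the brightest antigenomic control, so their differences do not show a measured transcript.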

How the data were processed

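There were 9 Affymetrix arrays, 3 each for Del52, Ins5 and WT, grouped by the labels. The authors deposited log2 values per probe set, made with Partek and RMA per the submitters' processing notes. RMA adjusts for background, brings arrays to a common distribution and sums up the probes of a set. Their versions were not given in the sources used here. In all, the table holds 49386 probe sets. The 93 controls were left out of tests, and only the 45253 probe sets with 1 symbol in the platform annotation were used, since 1327 have several and 2713 none. By gene identifier 45172 of them were found in RefSeq (GRCh38.p14), and 0 symbols were updated. The array's own annotation names no build, so only the promoter windows carry coordinates. The brightest probe set over all arrays stood for each of the 18239 genes.

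Log2 values were fitted with limma 3.58.1 in R 4.3.3 with 1 mean per group over all 9 arrays, and p-values, all two-sided, were adjusted over all genes by Benjamini-Hochberg. No fold threshold or filter on dim genes was used. A gene passed at an adjusted p under 0.05. The fit with the replicate number as a block gave the blocked 95% intervals. The replicate numbers come from the labels, which do not say what they mark. In the deposited values, the means of the 3 arrays with the same number were equal in 49293 of 49293 probe sets, with a largest spread of 6.7e-05, while the other 35 ways of forming such triplets gave a median spread of at least 0.056. Only 6 principal components were above 0. No source used here names the step that did this. As a result, deviations of same-numbered arrays correlated between -0.92 and 0.64, and the fit without the block overstates its degrees of freedom (6 against 4).

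Arrays give no read depth, and the number of arrays limits the precision. Motifs were searched in RefSeq promoters with Python 3.11.15. Every member may be named, and of the further genes those with the 4 smallest unadjusted p-values per comparison. The members were chosen by name and not by their values, but earlier results of these data were known when members, lists and tests were set. Alternatives covered the block, the first principal component, array centring, quantile normalization, a filter on dim genes, the mean of all probe sets, moderation, array weights, the arrays in the fit and leaving out each array. SEC61G, UBL4A, NOMO1 and NOMO3 were not analysed here.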

Additional observations from a re-analysis of the deposited data

How the results depend on the processing

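Under the replicate block, 0 genes passed in any of the 3 comparisons or the F test, with a smallest adjusted p of 1.0. The genes at an unadjusted p under 0.05 numbered 386 against 1285 without the block in Del52 against WT, 386 against 1351 in Ins5 against WT, 242 against 1052 in Del52 against Ins5, and 244 against 1318 in the F test. With the first principal component as a covariate, 4 genes passed in Del52 against WT, 7 in Ins5 against WT and 2 in the F test, none of them a member. EMC1 came close in Del52 against WT there, with a limma adjusted p of 0.0507, which was 0.636 once the block was added. With the block as well, an alternative chosen after seeing the data, 0 passed, and likewise 0 in the 3 comparisons without WT replicates 2 and 3 together. Array weights gave 3190 genes and 10 members in Del52 against WT and 4017 genes and 10 members in Ins5 against WT. The weighting did not converge and gave WT replicate 1 a weight of 67, against 0.237 to 1.82 for the other arrays, so these counts rest on 1 array. The members' median in Del52 against WT was 0.024 without WT replicate 3, within a range of -0.065 to 0.024 when single arrays were left out, and the range was -0.051 to 0.013 in Ins5 against WT and -0.010 to 0.042 in Del52 against Ins5. Of the 99 member differences (33 members in 3 comparisons), 38 kept their sign in every setting run. Some settings leave a difference as it was and could not change its sign. These are the block, the moderation, the filter on dim genes, the fits of 2 groups alone and the omission of an array of the third group.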
